A study of Homo sapiens with 61 samples.

Results

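The genes described are 9 of the 58440 genes in the deposited count tables. They encode the MAP2K kinases MAP2K4 and MAP2K7, the JNK kinases MAPK8, MAPK9 and MAPK10, and the JIP scaffolds MAPK8IP1, MAPK8IP2, MAPK8IP3 and SPAG9. They were chosen by symbol, matched to the tables' identifiers through GENCODE 29, and all 9 passed the filter on low counts in both experiments. RNA was sequenced from neurons that NGN2, a transcription factor switched on from a doxycycline-driven cassette, had made out of the human iPSC line WTC11 (induced pluripotent stem cells, an established line). In experiment 1 the lines were WT, DLK KO (DLK is the product of MAP3K12), LZK KO (LZK is the product of MAP3K13) and DLK LZK double KO, each as 4 untreated and 4 vincristine libraries. In experiment 2 the neurons carried the CRISPR interference machinery, which silences a gene at its promoter, and a lentiviral guide RNA (gRNA) that was a scrambled control (Control gRNA) or aimed at ATF2 or JUN. Each of these groups had 5 libraries, except ATF2 gRNA with vincristine, which had 4. Vincristine, a drug that blocks microtubule assembly, was given at 5 nM for 16 h at day 14, and the groups called untreated received the DMSO vehicle for the same time. Each knockout is 1 line, so the knockout and other properties of that line cannot be told apart. No label says that the libraries of a group came from separate cultures or inductions, so p-values measure the spread between these libraries, which may be technical.

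JNK signalling is a kinase relay. A MAP3K such as DLK or LZK phosphorylates the MAP2Ks MKK4 (MAP2K4) and MKK7 (MAP2K7), which phosphorylate JNK1 (MAPK8), JNK2 (MAPK9) and JNK3 (MAPK10), the last of which is found mainly in brain. The JIP scaffolds hold kinases of the relay together and also bind kinesin motors, so that in axons they link the relay to transport. JIP1 (MAPK8IP1) and JIP2 (MAPK8IP2) are related in sequence, as are JIP3 (MAPK8IP3) and JIP4 (SPAG9). DLK and LZK are known for starting the response of neurons to axon and microtubule damage, and JUN and ATF2 are transcription factors that JNK phosphorylates. The libraries measure RNA, so they hold no measure of kinase activity.

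Total counts per library ran from 8410729 to 14647819 in experiment 1 and from 38925807 to 88392414 in experiment 2. In untreated neurons MAP3K12 stood at 28.9% of WT in DLK KO and 21.6% in the double KO, and MAP3K13 at 32.2% of WT in LZK KO and 29.9% in the double KO. ATF2 stood at 0.425% of Control gRNA in ATF2 gRNA, and JUN at 3.21% in JUN gRNA. JUN was also at 39.5% of WT in DLK KO, at 28.3% in the double KO and at 23.7% of Control gRNA in ATF2 gRNA. ATF2 was at 50.4% of WT in DLK KO, and MAP3K12 at 74.1% of Control gRNA in ATF2 gRNA. All 11 neuron markers were above 1 CPM (counts scaled to a common library size) in every group, with group sums of 10911 to 18810 CPM, against 1.72 to 7.38 CPM for 5 astrocyte markers, 1.80 to 57.1 CPM for 5 pluripotency markers, 8.92 to 44.2 CPM for 5 oligodendrocyte-lineage markers and 0.484 to 29.5 CPM for 3 markers of GABAergic neurons. The 4 markers of peripheral sensory-like neurons summed to 128 to 491 CPM, most of it POU4F1 (435 CPM in untreated WT and 200.9 CPM in the untreated double KO). Replicate 4 of WT with vincristine stood apart. For each library the log2 CPM of genes was set against the mean over groups, and the median over 4549 GC-poor genes was taken from that over 4549 GC-rich genes. This measure was -0.57 there, against 0.15 to 0.31 in replicates 1 to 3. It did not overlap between DLK KO untreated (-0.22 to -0.0047) and DLK KO with vincristine (0.11 to 0.31), and in untreated LZK KO it ran from -0.40 to 0.17. Untreated WT (0.048 to 0.19) also lay above untreated DLK KO and the untreated double KO (-0.15 to 0.0042) without overlap. MAP2K7, MAPK8IP1, MAPK8IP2 and MAPK8IP3 are GC-rich (62.9% to 64.6% of transcript bases, where the median of tested genes is 47.6%). All 4 were lowest, within WT with vincristine, in replicate 4. Results of WT with vincristine that turn on it are followed by the value without it.

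All 9 genes were expressed in every group. Levels between genes are compared as CPM per kilobase of gene model. In untreated WT neurons MAPK8IP1 was highest at 54.2 CPM per kb, followed by SPAG9 at 34.3, MAPK8IP2 at 26.7, MAPK8 at 25.9, MAPK8IP3 at 19.7, MAP2K4 at 17.1, MAPK9 at 10.9, MAP2K7 at 7.79 and MAPK10 at 5.90. In untreated Control gRNA neurons MAPK8IP1 was again highest at 94.9 CPM per kb and MAPK10 lowest at 3.44. The length used is that of the whole gene model in the deposited tables, 42646 bases for MAPK10 and 3498 for MAPK8IP1, so a value per kilobase depends on it.

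The 3 JNK genes contributed unequally. MAPK8 made up 60.6% ± 1.6 (SD, n = 4) of the summed JNK level per kilobase in untreated WT, MAPK9 25.6% ± 1.2 and MAPK10 13.8% ± 0.49. In untreated Control gRNA the shares were 69.8% ± 1.7 for MAPK8, 24.0% ± 1.6 for MAPK9 and 6.13% ± 0.12 for MAPK10 (SD, n = 5). Within experiment 1 the MAPK10 share ran from 9.41% ± 0.28 in LZK KO with vincristine to 16.5% ± 0.32 in the untreated double KO. Within experiment 2 it ran from 5.12% ± 0.13 in untreated JUN gRNA to 6.25% ± 0.22 in Control gRNA with vincristine. Per kilobase the share of MAPK8 was the largest in all 14 groups. The summed JNK level was 42.7 ± 2.1 CPM per kb in untreated WT, 55.9 ± 5.5 in untreated LZK KO and 50.3 ± 1.2 in the untreated double KO (SD, n = 4). In experiment 2 it was 56.1 ± 0.99 in untreated Control gRNA, 45.0 ± 1.4 in untreated ATF2 gRNA and 58.4 ± 2.5 in untreated JUN gRNA (SD, n = 5). Counted without the correction for length, MAPK10 was 42.1% of the JNK reads in untreated WT and 22.8% in untreated Control gRNA. On that scale MAPK10 was above MAPK8 in every library of the untreated double KO (means 47.1% ± 0.58 against 41.7% ± 0.42; SD, n = 4). Its mean was also the higher in the double KO with vincristine (45.0% ± 0.53 against 44.0% ± 0.72). The same held in WT, untreated (42.1% ± 1.0 against 41.6% ± 1.5) and with vincristine (43.2% ± 0.43 against 42.0% ± 1.5). In these last groups the libraries did not all have that order, and in untreated WT only replicate 4 had it. In WT with vincristine replicates 1 to 3 had it, and replicate 4, the library that stands apart, did not (43.2% against 43.9%).

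**Figure D1:**
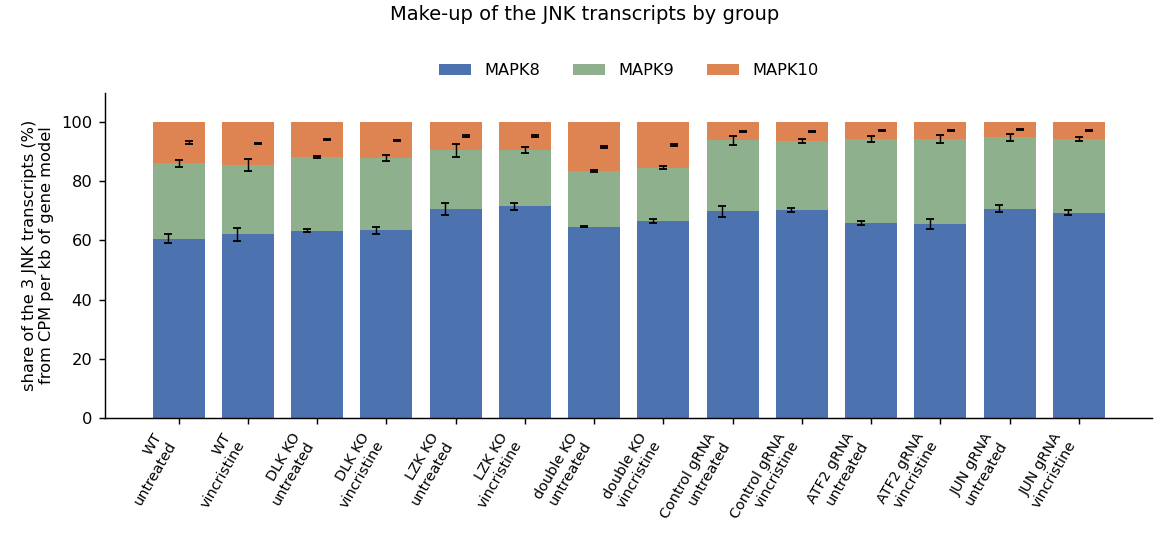
Share of MAPK8, MAPK9 and MAPK10 in their summed level per kilobase of gene model (vertical axis, percent) for the 14 groups (horizontal axis). Bars are group means and lines are the SD over 4 or 5 libraries, drawn at the upper edge of the MAPK8 and MAPK9 segments and in the middle of the MAPK10 segment; the MAPK10 segment is highest in the untreated double KO at 16.5% and MAPK8 is the largest segment in every group on this scale.

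The question put to these genes is whether their RNA changes when microtubules are disrupted, and whether that change needs DLK, LZK, ATF2 or JUN. MAPK8IP1 was the member with the largest change. MAPK8IP1 (ENSG00000121653.11, GRCh38 chromosome 11, 45885651 to 45906465, plus strand) stood at 187, 201, 187 and 184 CPM in the 4 untreated WT libraries and at 413, 368, 331 and 188 CPM with vincristine. Replicates 1 to 3 with vincristine lay above every untreated library, and replicate 4, the library that stands apart, lay among them. The rise was 1.71-fold (log2 0.78 ± 0.14 SE, edgeR quasi-likelihood test with Benjamini-Hochberg adjustment, adjusted p = 6.86e-05). Without replicate 4 it was 1.95-fold (log2 0.96, adjusted p = 6.00e-12).

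In DLK KO, MAPK8IP1 was at 105, 119.6, 131 and 132 CPM untreated and at 208, 201, 174 and 199 CPM with vincristine, with no overlap between the groups. It rose there by 0.68 ± 0.14 on the log2 scale (adjusted p = 0.00304), and by 0.45 when each library's trend with gene GC content was removed. In LZK KO it was at 128, 109, 136 and 125 CPM untreated and 160.1, 141, 173 and 193 CPM with vincristine. These libraries did not overlap either, but the difference of 0.42 ± 0.14 was not called (adjusted p = 0.105); with the GC trend removed it was 0.33 and was called (adjusted p = 0.000294). In the double KO the gene was at 93.0, 99.1, 92.6 and 109 CPM untreated and at 93.0, 95.3, 96.8 and 94.3 CPM with vincristine. The double KO groups overlapped almost completely, with a difference of -0.05 ± 0.14 (adjusted p = 0.949).

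In experiment 2, where depth was higher, MAPK8IP1 was at 316, 376, 326, 338 and 306 CPM in untreated Control gRNA and at 550.5, 631, 597, 613 and 543 CPM with vincristine. All 5 treated libraries lay above all untreated ones, a 1.77-fold rise (log2 0.82 ± 0.06, adjusted p = 6.44e-14). With the ATF2 gRNA it was at 252, 229, 233, 256 and 245 CPM untreated and at 247, 242, 257 and 276 CPM with vincristine, groups that overlap and differed by 0.07 ± 0.06 (adjusted p = 0.601). With the JUN gRNA it was at 264, 265, 274, 232 and 288 CPM untreated and at 341, 309.8, 334, 301 and 295 CPM with vincristine. The JUN gRNA groups did not overlap, and the rise was 1.20-fold (log2 0.26 ± 0.06, adjusted p = 0.000996).

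The differences between these responses were tested as interaction terms. The MAPK8IP1 response was smaller in the double KO than in WT by 0.83 ± 0.20 on the log2 scale (a difference of -0.83, adjusted p = 0.00324); without WT vincristine replicate 4 the difference was -1.02 (adjusted p = 1.58e-08). It was smaller with the ATF2 gRNA than with Control gRNA (-0.75 ± 0.08, adjusted p = 1.21e-08) and smaller with the JUN gRNA than with Control gRNA (-0.56 ± 0.08, adjusted p = 2.15e-06). The differences of DLK KO from WT (-0.10 ± 0.20, adjusted p = 0.780), of LZK KO from WT (-0.36 ± 0.20, adjusted p = 0.257), of the double KO from DLK KO (-0.73 ± 0.20, adjusted p = 0.0664) and of ATF2 gRNA from JUN gRNA (-0.19 ± 0.08, adjusted p = 0.293) were not called. With the GC trend removed all 4 were called, at -0.39 (adjusted p = 0.000648), -0.51 (2.83e-05), -0.47 (0.000877) and -0.20 (0.00343). Without WT vincristine replicate 4 the LZK KO difference was called (-0.54, adjusted p = 0.00114) and the DLK KO difference was not (-0.29, adjusted p = 0.0829). The comparisons of one experiment share their control libraries.

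Ordered by mean level in experiment 1, MAPK8IP1 ran from WT with vincristine at 325 ± 97.4 CPM, or 370.5 ± 41.2 CPM over the 3 libraries without replicate 4, through DLK KO with vincristine at 195 ± 15.0, untreated WT at 189.7 ± 7.6 and LZK KO with vincristine at 167 ± 22.0 (SD, n = 4). Below these came untreated LZK KO at 125 ± 11.3, untreated DLK KO at 122 ± 12.6, the untreated double KO at 98.4 ± 7.6 and the double KO with vincristine at 94.8 ± 1.6 (SD, n = 4). In that order 3 neighbouring pairs were closer than the larger SD of the pair: DLK KO with vincristine and untreated WT, untreated LZK KO and untreated DLK KO, and the 2 double KO groups. In experiment 2 the order was Control gRNA with vincristine at 587 ± 38.6 CPM, untreated Control gRNA at 332 ± 27.1, JUN gRNA with vincristine at 316 ± 20.5, untreated JUN gRNA at 265 ± 20.6, ATF2 gRNA with vincristine at 255 ± 14.8 (SD, n = 4) and untreated ATF2 gRNA at 243 ± 11.8 (SD, n = 5 in the others). Here the steps from untreated Control gRNA to JUN gRNA with vincristine, from untreated JUN gRNA to ATF2 gRNA with vincristine and from there to untreated ATF2 gRNA were smaller than the larger SD. NES, the neural progenitor marker that dominates its list, had higher means with vincristine in all lines but the double KO and ATF2 gRNA. It was at 717 CPM in untreated WT and 1529 CPM with vincristine (1741 CPM without replicate 4), and at 1325 and 2432 CPM in Control gRNA. In DLK KO it was at 226 and 536 CPM and in LZK KO at 516 and 970 CPM. In JUN gRNA NES was at 1021 and 1689 CPM, where MAPK8IP1 was at 265 and 316 CPM. NES was at 92.1 and 84.8 CPM in the double KO and at 765 and 735 CPM in ATF2 gRNA. The other 5 progenitor and division markers summed to 30.9 and 31.4 CPM in WT (32.0 CPM without replicate 4) and to 22.4 and 33.0 CPM in Control gRNA. The part of progenitor cells in the MAPK8IP1 result was not tested, and in bulk RNA a change in cell make-up and a change in RNA per cell cannot be told apart.

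**Figure D2:**
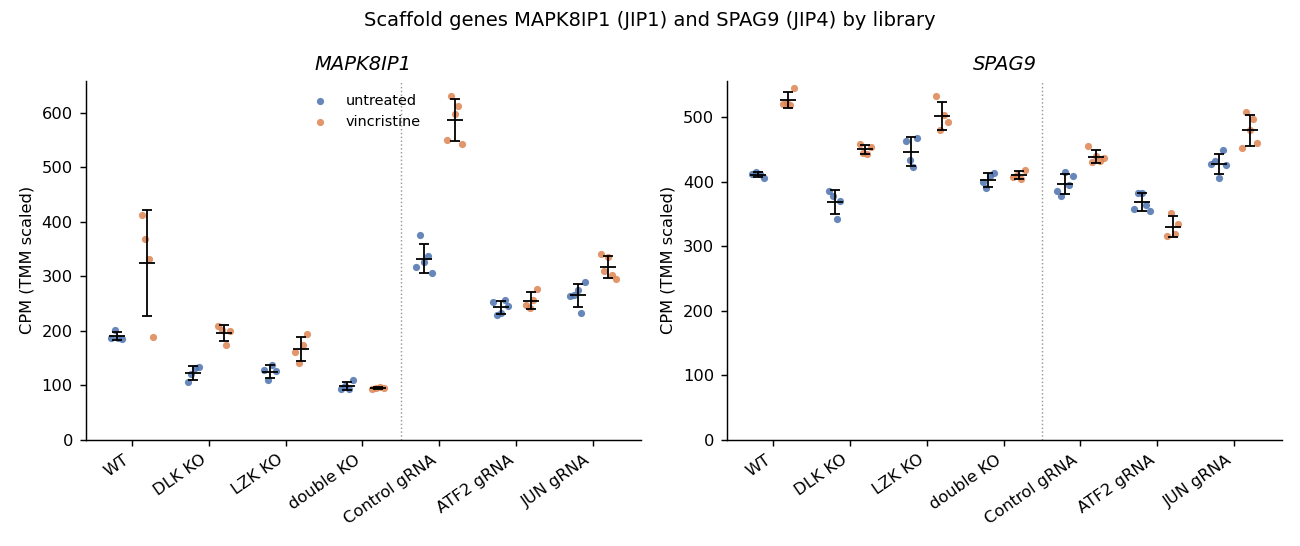
Level of MAPK8IP1 and SPAG9 (vertical axes, CPM scaled with TMM factors) in each library, by line (horizontal axis) and treatment (colour); black marks are group means with their SD, and the dotted line parts the 2 experiments. The MAPK8IP1 libraries with vincristine lie above the untreated ones in every line except the double KO and ATF2 gRNA, where they overlap, and WT, where 1 of 4 falls among them.

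SPAG9, which encodes JIP4, was the second scaffold with a rise in several lines (ENSG00000008294.20, chromosome 17, 50962174 to 51120865, minus strand). It was at 411, 414, 411 and 405 CPM in untreated WT and at 519, 522, 518 and 544 CPM with vincristine, groups far apart relative to their spread. The rise was 1.28-fold in WT (log2 0.36 ± 0.05, adjusted p = 1.39e-07) and remained at 0.34 without replicate 4. In DLK KO it went from 385, 377, 342 and 369.8 CPM to 458, 444, 443 and 454 CPM, without overlap (log2 0.29 ± 0.05, adjusted p = 8.34e-05). In LZK KO it was at 463, 434, 422 and 468 CPM untreated and at 532, 480.0, 503 and 492 CPM with vincristine, again without overlap (log2 0.17 ± 0.05, adjusted p = 0.0311). This LZK KO call was lost without untreated replicate 2 or 3 or vincristine replicate 1, 3 or 4 (0.14 to 0.18, adjusted p = 0.0534 to 0.147). In the double KO SPAG9 was at 399, 389, 408 and 414 CPM untreated and at 408, 410.0, 404 and 418 CPM with vincristine, overlapping groups that differed by 0.03 ± 0.05 (adjusted p = 0.928).

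In experiment 2 SPAG9 moved in opposite directions. In Control gRNA it was at 385, 377, 415, 394 and 408 CPM untreated and at 454, 430.2, 439.9, 432 and 436 CPM with vincristine, all higher (log2 0.15 ± 0.04, adjusted p = 0.000859). In JUN gRNA it was at 426, 431, 405, 449.5 and 425 CPM untreated and at 452, 507, 480.1, 496 and 459.8 CPM with vincristine, all higher again (log2 0.17 ± 0.04, adjusted p = 0.000575). In ATF2 gRNA it was at 357, 382, 382, 364 and 354 CPM untreated and at 315, 352, 319 and 334 CPM with vincristine. There the treated libraries all lay below the untreated ones, and SPAG9 fell (log2 -0.16 ± 0.04, adjusted p = 0.00672), a call lost without ATF2 gRNA vincristine replicate 2 or 4 (-0.13 in each case, adjusted p = 0.0569 to 0.0633). The response with the ATF2 gRNA differed from that with Control gRNA by -0.30 ± 0.05 (adjusted p = 1.52e-05) and from that with the JUN gRNA by -0.32 ± 0.05 (adjusted p = 4.56e-05). The JUN gRNA and Control gRNA responses differed by 0.02 ± 0.05 (95% interval -0.08 to 0.12, adjusted p = 0.893). In experiment 1 the response was smaller in the double KO than in WT (-0.33 ± 0.07, adjusted p = 0.000310; -0.31 and adjusted p = 0.000476 without WT vincristine replicate 4) and than in DLK KO (-0.26 ± 0.07, adjusted p = 0.0362), and the last call was lost without any 1 of the 16 libraries compared except DLK KO untreated replicate 1 (-0.27 to -0.22, adjusted p = 0.0569 to 0.123). The difference of LZK KO from WT (-0.19 ± 0.07, adjusted p = 0.0547) was not called, nor was it without that WT library (-0.17, adjusted p = 0.0865).

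The remaining scaffolds, MAPK8IP2 and MAPK8IP3, were called with vincristine in Control gRNA, where both fell. MAPK8IP2 (ENSG00000008735.13, chromosome 22, 50600685 to 50613981, plus strand) was at 229.7, 248, 232, 242 and 229 CPM in untreated Control gRNA and at 184, 206, 199.6, 202 and 192 CPM with vincristine. The treated libraries all lay below the untreated ones, and MAPK8IP2 fell (log2 -0.26 ± 0.05, adjusted p = 2.21e-05). In ATF2 gRNA it was at 179.6, 156, 163, 179.7 and 169.6 CPM untreated and at 144, 159, 178 and 170.5 CPM with vincristine, groups that overlap. The difference between the ATF2 gRNA and Control gRNA responses was 0.20 ± 0.07 (adjusted p = 0.0363); with the GC trend removed it was 0.12 and no longer called (adjusted p = 0.0670), and leaving out any 1 of 9 libraries also ended the call (0.15 to 0.20, adjusted p = 0.0517 to 0.167): untreated replicates 2 and 4 and vincristine replicates 1 and 5 of Control gRNA, untreated replicates 2 and 3 and vincristine replicates 3, 4 and 5 of ATF2 gRNA. MAPK8IP3 (ENSG00000138834.12, chromosome 16, 1706183 to 1770317, plus strand) fell in Control gRNA (log2 -0.17 ± 0.05, adjusted p = 0.00813), from 211, 215, 203, 227 and 199.5 CPM to 173, 196, 179, 204 and 184 CPM, with 1 treated library above the lowest untreated one. In WT neither scaffold was called, at 159.6, 165, 152 and 154 CPM untreated and 179.5, 156, 142 and 68.9 CPM with vincristine for MAPK8IP2, and at 194, 211, 196 and 208 CPM untreated and 259, 224, 199 and 97.3 CPM with vincristine for MAPK8IP3. The lowest value of each was replicate 4, and without it the differences were 0.01 (adjusted p = 0.952) and 0.17 (adjusted p = 0.251), again not called. In DLK KO MAPK8IP3 was at 137, 144, 171 and 176.1 CPM untreated and at 212, 218, 176.5 and 202 CPM with vincristine, all higher, but the difference was not called (log2 0.36 ± 0.17, adjusted p = 0.198). MAPK8IP2 differed there by 0.28 ± 0.17 with overlapping libraries (adjusted p = 0.315). With the GC trend removed these differences were 0.12 and 0.06.

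Of the kinases, MAP2K7 had the largest single difference with vincristine, in DLK KO. MAP2K7 (ENSG00000076984.17, chromosome 19, 7903843 to 7914478, plus strand), which acts on JNK alone among the MAPKs, was at 32.5, 38.7, 35.7 and 39.3 CPM in untreated DLK KO and at 54.2, 49.5, 47.3 and 53.6 CPM with vincristine. It rose there without overlap (log2 0.49 ± 0.14, adjusted p = 0.0287); the value was 0.26 with the GC trend removed (adjusted p = 0.0213), and the call ended without any 1 of vincristine replicates 1, 2 and 4 and untreated replicates 1 and 3 (0.43 to 0.50, adjusted p = 0.0617 to 0.111). In JUN gRNA it rose from 49.2, 46.5, 48.5, 43.5 and 45.2 CPM to 54.4, 53.1, 57.3, 52.7 and 55.3 CPM (log2 0.23 ± 0.05, adjusted p = 0.00102), again without overlap. In WT it was at 39.3, 42.0, 39.8 and 39.2 CPM untreated and at 54.4, 51.9, 54.7 and 26.5 CPM with vincristine, and the difference of 0.23 ± 0.14 was not called (adjusted p = 0.212). Without the low replicate 4 it was 0.42 and called (adjusted p = 0.000238). MAP2K7 was not called in Control gRNA, at 46.0 ± 2.5 CPM untreated and 48.5 ± 2.3 with vincristine (SD, n = 5). Nor was it called in LZK KO (means 41.5 and 43.2 CPM), the double KO (41.8 and 39.4) or ATF2 gRNA (52.6 and 57.4). MAP2K4 (ENSG00000065559.14, chromosome 17, 12020824 to 12143830, plus strand), which can also act on p38, fell in Control gRNA (log2 -0.13 ± 0.04, adjusted p = 0.00454), from 163, 171, 166, 157 and 168 CPM to 157, 151, 153, 145 and 149.8 CPM, groups that meet at 157 CPM. In WT its difference was -0.10 ± 0.08 (adjusted p = 0.413), and -0.22 without replicate 4, which was called (adjusted p = 0.0120).

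Among the JNK genes, MAPK9 (ENSG00000050748.17, chromosome 5, 180233143 to 180292099, minus strand) was at 97.4, 98.5, 97.8 and 96.7 CPM in untreated WT and at 88.3, 87.3, 90.7 and 91.0 CPM with vincristine. The groups did not overlap and the fall was small (log2 -0.13 ± 0.05, adjusted p = 0.0376). It also fell in Control gRNA (-0.11 ± 0.04, adjusted p = 0.0400), and both are near the threshold. Without vincristine replicate 4 the WT fall was still called (-0.14, adjusted p = 0.0402), and it was lost without any other 1 library (-0.14 to -0.11, adjusted p = 0.0530 to 0.118), and the Control gRNA call without untreated replicate 1, 3 or 5 or vincristine replicate 2, 4 or 5 (-0.12 to -0.08, adjusted p = 0.0505 to 0.194). MAPK8 (ENSG00000107643.15, chromosome 10, 48306639 to 48439360, plus strand) fell in JUN gRNA, from 400.4, 402, 370.3, 430.2 and 386 CPM to 343, 377, 347, 349 and 342 CPM (-0.18 ± 0.04, adjusted p = 0.000306), with 1 treated library above the lowest untreated one. It also fell in ATF2 gRNA (-0.14 ± 0.04, adjusted p = 0.0252), a call lost with RLE factors (another scaling of library size), with DESeq2 and without untreated replicate 2, 3 or 5 or vincristine replicate 3, 4 or 5 (-0.13 to -0.11, adjusted p = 0.0597 to 0.137). MAPK10 (ENSG00000109339.21, chromosome 4, 85990007 to 86594625, minus strand) was called in none of the 7 vincristine comparisons, with differences from -0.11 in ATF2 gRNA to 0.06 in WT (-0.02 without replicate 4, which was its highest library), and with the GC trend removed it was called lower in Control gRNA (-0.15, adjusted p = 0.00118). PTPN13, which overlaps MAPK10 on the opposite strand at 62.9 CPM in experiment 1 and 86.8 CPM in experiment 2, cannot be told apart from it in the reads if counting ignored strand, a setting not given in the sources used here. The same holds for CHKB on the strand opposite MAPK8IP2 (4.09 and 2.27 CPM) and for NME3 opposite MAPK8IP3 (5.38 and 8.10 CPM).

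Read against all genes, the members' counts were as follows. Vincristine changed 3 of 9 members in WT, where 30.2% of all tested genes were called, 3 of 9 in DLK KO (6.53% of all genes), 1 of 9 in LZK KO (3.88%) and 0 of 9 in the double KO (0.0658%). In the double KO 0 members had an unadjusted p under 0.05 in edgeR, and DESeq2 and limma voom each called 0. MAPK8 was there at 319, 305, 321 and 310.5 CPM untreated and at 363, 342, 337 and 358 CPM with vincristine. Its treated libraries were thus all higher, though the difference was not called. In experiment 2 it changed 6 of 9 members in Control gRNA (35.3% of all genes), 2 of 9 in ATF2 gRNA (6.10%) and 4 of 9 in JUN gRNA (15.9%). The WT share of members is near that of all genes. In DLK KO the calls over all genes were 774 higher and 416 lower, and 857 higher and 239 lower with the GC trend removed. Of the differences in response, 0 members were called for DLK KO against WT (19.4% of all genes) and 0 for LZK KO against WT (12.4%), with 1 member in each under an unadjusted p of 0.05, while DESeq2 called 0 and 1 and limma voom 0 and 3. Then 2 were called for the double KO against WT (19.4%), 1 for the double KO against DLK KO (1.14%), 3 for ATF2 gRNA against Control gRNA (20.6%), 1 for JUN gRNA against Control gRNA (15.8%) and 1 for ATF2 gRNA against JUN gRNA (2.83%). Without WT vincristine replicate 4 the count was 5 in WT (32.4% of all genes called in that fit), 0 for DLK KO against WT (18.0%), 2 for LZK KO against WT (14.8%) and 5 for the double KO against WT (25.6%). The members added in the double KO were MAP2K7 (-0.50, adjusted p = 0.00188), MAP2K4 (0.29, adjusted p = 0.0203) and MAPK9 (0.19, adjusted p = 0.0495).

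**Figure D3:**
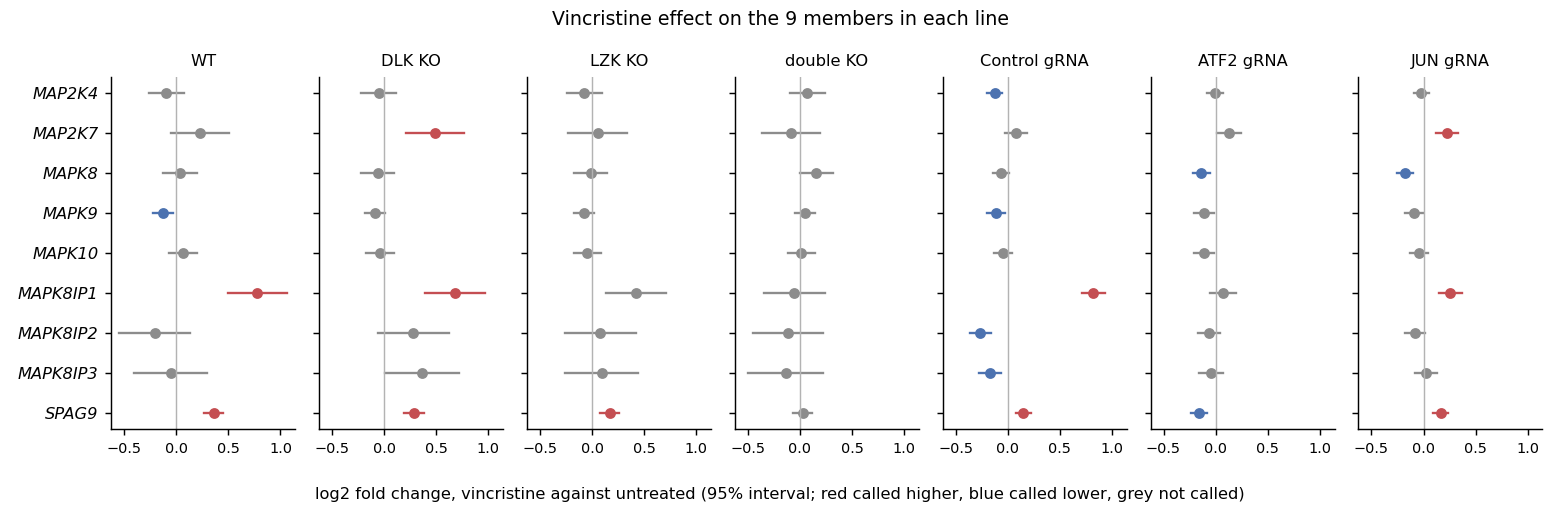
Log2 fold change with vincristine (horizontal axes) of the 9 genes (vertical axis) in the 7 lines, with 95% intervals; red genes were called higher, blue lower, grey not called. MAPK8IP1 is the farthest to the right in WT at 0.78 and Control gRNA at 0.82 and lies near 0 in the double KO at -0.05 and ATF2 gRNA at 0.07.

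Untreated lines were compared with their own control to see how the relay's RNA stood before the drug. MAPK8IP1 was lower than the control in all 5 comparisons. The log2 difference was -0.64 ± 0.14 in DLK KO (adjusted p = 0.000655), -0.61 ± 0.14 in LZK KO (0.00113) and -0.95 ± 0.14 in the double KO (2.11e-06). With the guides it was -0.45 ± 0.06 in ATF2 gRNA (adjusted p = 4.21e-08) and -0.33 ± 0.06 in JUN gRNA (8.03e-05). In each of these comparisons every library of the line lay below every control library. The tested genes on each side of MAPK8IP1 on chromosome 11 had medians between -0.11 and -0.02 in the same comparisons, over up to 25 genes on each side. In the double KO the level was 51.9% of WT, and in ATF2 gRNA 73.2% of Control gRNA. MAPK8IP1 is GC-rich, and the GC measure of untreated DLK KO and of the untreated double KO lay below that of untreated WT without overlap.

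MAPK8IP3 was called lower in the double KO, where the genes around it were lower too. It was at 194, 211, 196 and 208 CPM in untreated WT and at 89.1, 99.5, 83.8 and 92.5 CPM in the untreated double KO, less than any WT library (log2 -1.15 ± 0.17, adjusted p = 3.64e-06). The 50 tested genes nearest to it on chromosome 16 had a median difference of -1.10, with an interquartile range of -1.40 to -0.79. In DLK KO and LZK KO the same neighbours had medians of -0.21 and -0.11. The difference of MAPK8IP3 in the double KO thus lay within the interquartile range of its neighbours, and the loss of DLK and LZK cannot be told apart from other properties of that line. In DLK KO MAPK8IP3 was at 137, 144, 171 and 176 CPM, below all WT libraries, with a difference that was not called (-0.37 ± 0.17, adjusted p = 0.103).

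MAPK10 was higher in the double KO and MAPK8 in all 3 knockout lines. MAPK10 was at 263, 244, 251 and 249 CPM in untreated WT and at 350.1, 353, 364 and 351 CPM in the untreated double KO, all higher (log2 0.50 ± 0.07, adjusted p = 6.35e-08), where its neighbours had a median of 0.12. Some marker genes of other cell identities also stood apart in the untreated double KO, with PRPH at 112 CPM (2.84 in WT), ISL1 at 66.3 CPM (1.21 in WT) and LIN28A at 53.4 CPM (1.88 in WT). The lists they belong to did not move as wholes. POU4F1, of the same list as PRPH and ISL1, went the other way, at 200.9 CPM (435 in WT), and that list summed to 380 CPM (440 in WT). LIN28A made up most of the pluripotency sum of 55.4 CPM (3.10 in WT). The part of these markers in the differences of MAPK10, MAPK8IP1 and the other members there was not tested. In DLK KO MAPK10 was at 253, 232, 238 and 235 CPM and in LZK KO at 216, 263, 197 and 230.0 CPM, both overlapping WT and not called (adjusted p = 0.435 and 0.0701). MAPK8 was at 272, 247, 253 and 226 CPM in untreated WT, at 306, 274, 293 and 279.6 CPM in DLK KO, at 361, 436, 326 and 402 CPM in LZK KO and at 319, 305, 321 and 310.5 CPM in the double KO. Every knockout library was above every WT library. The log2 difference was 0.61 ± 0.08 in LZK KO (adjusted p = 7.83e-08), 0.33 ± 0.08 in the double KO (adjusted p = 0.000660) and 0.21 ± 0.08 in DLK KO (adjusted p = 0.0387), and differences between the knockout lines were not tested. Markers of dividing cells were higher in untreated LZK KO, with MKI67 at 33.1 CPM (4.83 in WT) and TOP2A at 20.9 CPM (1.53 in WT). The 5 progenitor and division markers other than NES summed to 79.7 CPM (30.9 in WT). NES went the other way, at 516 CPM (717 in WT), and the list with NES summed to 595 CPM (748 in WT). The part of these markers in the MAPK8 difference was not tested. The DLK KO call was lost with the GC trend removed (0.11, adjusted p = 0.0655) and without DLK KO replicate 1 or 3 or WT replicate 2, 3 or 4 (0.17 to 0.22, adjusted p = 0.0536 to 0.133). Neighbours of MAPK8 on chromosome 10 had medians of 0.03 in LZK KO and 0.14 in both the double KO and DLK KO, and of 0.01, 0.03 and 0.23 with 10 genes on each side.

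Calls of the other members in the knockout lines were as follows. MAPK8IP2 was at 91.6, 97.8, 123 and 124 CPM in untreated DLK KO, below every WT library (log2 -0.53 ± 0.17, adjusted p = 0.0136), where its 29 neighbours on chromosome 22 had a median of -0.34; the call was lost without DLK KO replicate 1 (-0.45, adjusted p = 0.0573). SPAG9 was lower in DLK KO (-0.16 ± 0.05, adjusted p = 0.00860), a call lost without DLK KO replicate 3 (-0.11, adjusted p = 0.0946). It was higher in LZK KO (0.12 ± 0.05, adjusted p = 0.0418), a call lost with RLE factors, with the GC trend removed (0.04, adjusted p = 0.604) and without any 1 of the 8 libraries (0.09 to 0.12, adjusted p = 0.0631 to 0.200). MAPK9 was lower in the double KO, at 85.5, 80.4, 88.0 and 84.6 CPM (-0.21 ± 0.05, adjusted p = 0.000427). MAP2K4 was lower there too, at 78.3, 81.7, 86.5 and 83.9 CPM against 104, 96.7, 102 and 89.3 CPM in WT (-0.25 ± 0.08, adjusted p = 0.0136), a call lost without double KO replicate 1, WT replicate 1 or WT replicate 3 (-0.22 to -0.21, adjusted p = 0.0535 to 0.0636). No MAP2K7 difference was called in the 3 knockout lines. In all, 4 of 9 members were called in DLK KO (34.5% of all genes), 3 in LZK KO (33.9%) and 6 in the double KO (45.7%). With the GC trend removed the counts were 5 in DLK KO (36.5% of all genes), 3 in LZK KO (34.5%) and 7 in the double KO (49.6%).

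**Figure D4:**
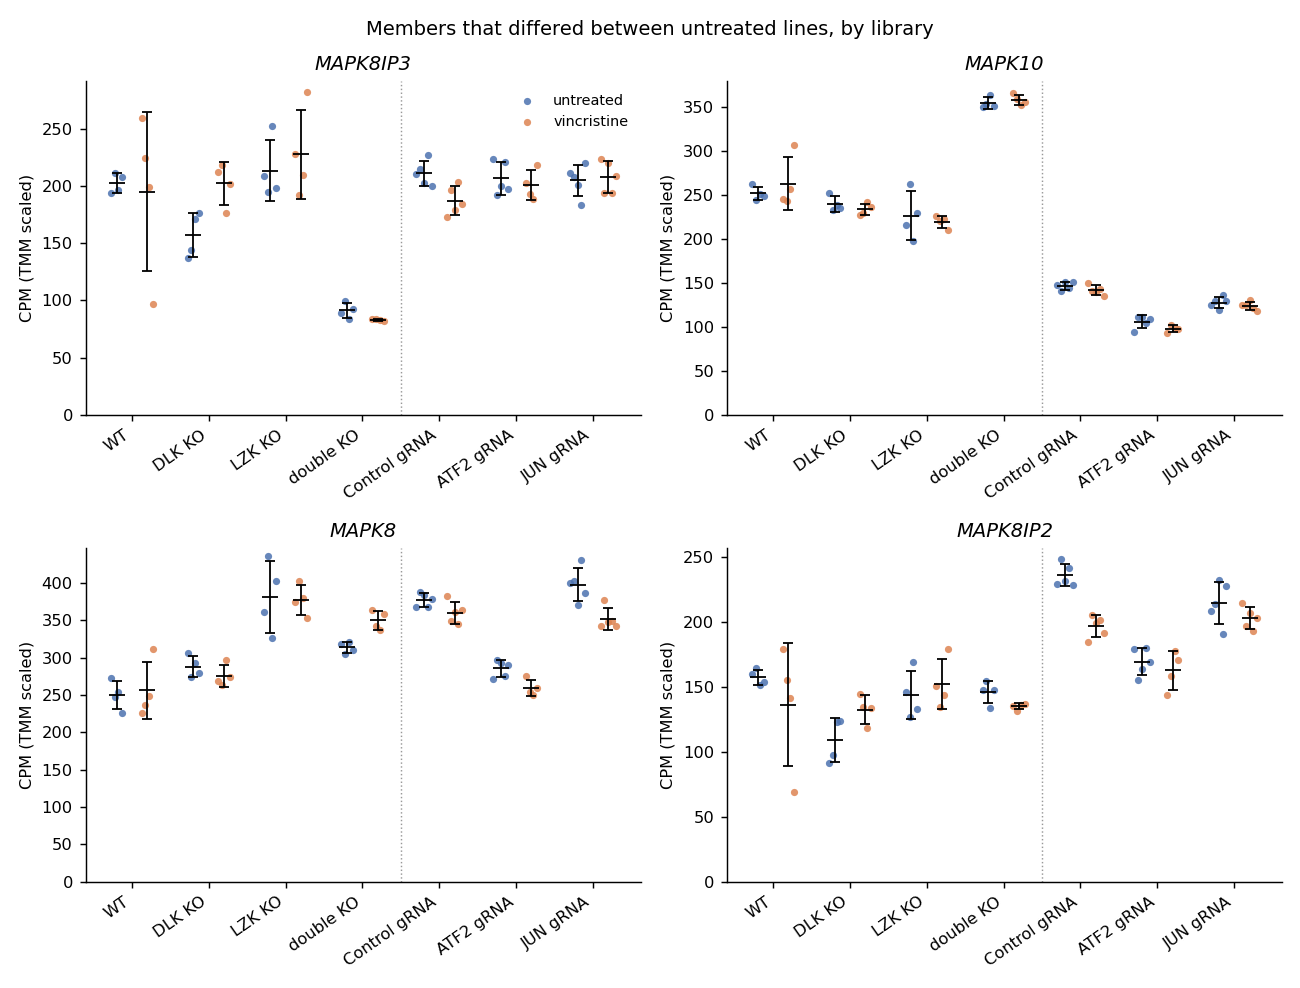
Level of MAPK8IP3, MAPK10, MAPK8 and MAPK8IP2 (vertical axes, CPM scaled with TMM factors) in each library, by line (horizontal axis) and treatment (colour); black marks are group means with their SD. The double KO libraries lie between 81.9 and 99.5 CPM for MAPK8IP3, where the only other library as low is WT vincristine replicate 4 at 97.3 CPM, and are highest for MAPK10, between 350.1 and 366 CPM.

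With the guides, 6 of 9 members were called in untreated ATF2 gRNA (39.9% of all genes) and 3 of 9 in untreated JUN gRNA (11.2%). The difference between these 2 counts was not tested. Markers of other cell identities also stood apart in untreated ATF2 gRNA. GABAergic markers summed to 24.3 CPM (1.06 in Control gRNA), pluripotency markers to 35.8 CPM (11.7) and peripheral sensory-like markers to 227 CPM (491). Their part in the differences of the members there was not tested. MAPK10 was at 147, 140.4, 151, 145 and 151 CPM in untreated Control gRNA and at 94.2, 111, 112, 104 and 109 CPM in untreated ATF2 gRNA, all lower (log2 -0.47 ± 0.04, adjusted p = 9.19e-13). In untreated JUN gRNA it was at 124, 129.6, 119, 136 and 129 CPM, lower than every control library by less (-0.20 ± 0.04, adjusted p = 0.000683). MAPK8 was at 368, 387, 384, 368 and 379 CPM in untreated Control gRNA and at 272, 297, 292, 276 and 290.4 CPM in untreated ATF2 gRNA. These groups lay far apart (-0.40 ± 0.04, adjusted p = 1.05e-12), whereas in JUN gRNA the MAPK8 difference of 0.08 ± 0.04 was not called (adjusted p = 0.212). MAPK8IP2 was lower in ATF2 gRNA, without overlap (-0.48 ± 0.05, adjusted p = 4.54e-11), and MAP2K7 was higher (0.19 ± 0.05, adjusted p = 0.00215). SPAG9 was lower there (-0.11 ± 0.04, adjusted p = 0.0151), a call lost without Control gRNA replicate 3 or ATF2 gRNA replicate 5 (-0.09, adjusted p = 0.0531 to 0.0590). In ATF2 gRNA the median difference of MAPK10's neighbours was 0.17 and that of MAPK8's was -0.05; with 10 genes on each side in place of 25 they were 0.35 and -0.23. The third call in JUN gRNA was SPAG9, higher by 0.11 ± 0.04 (adjusted p = 0.0361) and lost with the GC trend removed (0.07, adjusted p = 0.0584) and without untreated replicate 1, 2 or 4 of either group (0.09 to 0.11, adjusted p = 0.0580 to 0.131).

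**Figure D5:**
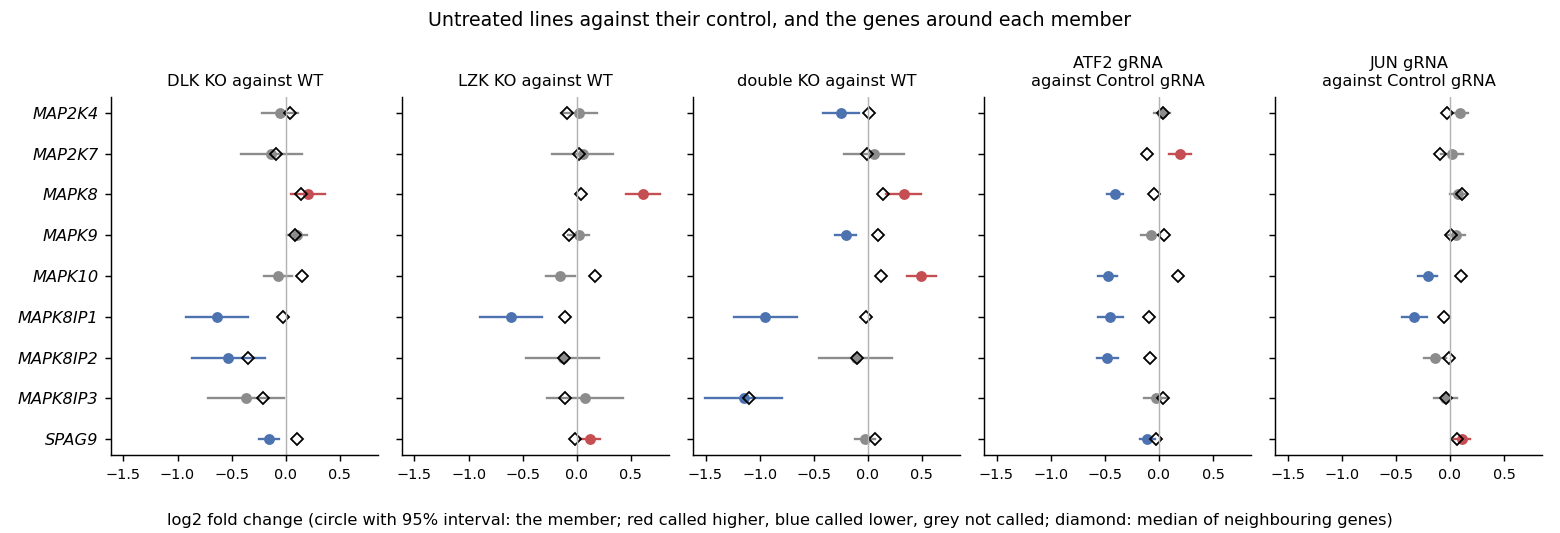
Log2 fold change of each untreated line against its control (horizontal axes) for the 9 genes (vertical axis); circles with 95% intervals are the genes (red called higher, blue lower, grey not called) and open diamonds are the medians of up to 50 neighbouring genes. The circle and the diamond of MAPK8IP3 in the double KO lie together at -1.15 and -1.10, while MAPK8IP1 lies apart from its diamond in all 5 panels.

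ATF2 is known to bind the cyclic AMP response element (CRE), and promoters are printed for the 4 members whose window holds that motif in full or in part. They were chosen by the motif and not by their response: MAPK10, MAPK8 and SPAG9 were called lower in untreated ATF2 gRNA and MAPK8IP3 was not. In that comparison 39.9% of all genes were called. The SPAG9 difference was small (-0.11), and its call was lost when some single libraries were left out. The motif is in 1 of the 3 MAPK10 starts, and which start these neurons use was not measured. The windows run from 250 bases before to 50 bases after a transcription start, from RefSeq on GRCh38.p14, which matched 8 of the 9 members with 12 starts (MAPK8IP1 had no entry). Capitals mark the CRE motif TGACGTCA or, where only part of it was present, the shorter TGACGT, searched on both strands; the full motif holds the shorter one on each strand. The windows are chr4:86360004-86360303 on the minus strand for MAPK10, chr10:48306427-48306726 on the plus strand for MAPK8, chr17:51120819-51121118 on the minus strand for SPAG9 and chr16:1705945-1706244 on the plus strand for MAPK8IP3.
MAPK10: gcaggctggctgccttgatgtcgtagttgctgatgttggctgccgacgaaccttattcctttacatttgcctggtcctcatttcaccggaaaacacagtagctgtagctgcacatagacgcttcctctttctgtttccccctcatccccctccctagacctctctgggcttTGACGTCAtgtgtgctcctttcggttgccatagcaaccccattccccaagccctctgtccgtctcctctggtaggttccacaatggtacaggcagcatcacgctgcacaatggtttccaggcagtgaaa
MAPK8: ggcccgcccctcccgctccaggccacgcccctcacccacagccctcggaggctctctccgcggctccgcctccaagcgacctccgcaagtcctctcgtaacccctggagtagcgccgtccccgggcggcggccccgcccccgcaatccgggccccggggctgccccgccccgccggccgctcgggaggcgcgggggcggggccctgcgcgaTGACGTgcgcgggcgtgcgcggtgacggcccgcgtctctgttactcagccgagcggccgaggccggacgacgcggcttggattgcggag
SPAG9: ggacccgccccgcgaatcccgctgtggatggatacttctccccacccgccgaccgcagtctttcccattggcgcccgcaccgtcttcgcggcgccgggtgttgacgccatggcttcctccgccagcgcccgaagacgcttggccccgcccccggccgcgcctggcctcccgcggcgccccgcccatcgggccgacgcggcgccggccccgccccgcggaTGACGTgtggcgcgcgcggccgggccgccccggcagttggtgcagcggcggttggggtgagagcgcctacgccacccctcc
MAPK8IP3: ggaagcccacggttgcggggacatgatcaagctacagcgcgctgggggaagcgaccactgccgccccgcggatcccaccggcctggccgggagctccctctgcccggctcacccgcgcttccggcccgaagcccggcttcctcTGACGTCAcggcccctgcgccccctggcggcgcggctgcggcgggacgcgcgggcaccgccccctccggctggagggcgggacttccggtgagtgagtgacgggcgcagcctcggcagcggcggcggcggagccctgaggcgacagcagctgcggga
The motif begins 79 bases before the start in this MAPK10 window, 39 in MAPK8, 31 in SPAG9 and 107 in MAPK8IP3. The full motif was in 2 member starts and the shorter one in 4 of 12, where 1.85% and 7.98% of 35116 RefSeq starts hold them. The AP-1 motif TGANTCA, which JUN is known to bind, was in 1 member start, another of the 3 of MAPK10, against 7.71% of all starts. MAPK8IP3, with the full motif, did not pass the test in untreated ATF2 gRNA (-0.03 ± 0.05, adjusted p = 0.718), and MAPK8IP2, which was lower there (-0.48), has neither motif in its window. A match describes letters in a window; binding was not measured.

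Over the 14 group means, centred within each experiment, MAPK8IP1 had the widest range at 1.71 on the log2 scale, followed by MAPK8IP3 at 1.44 and MAPK10 at 0.77. Among 12338 genes the closest to MAPK8IP1 by Pearson's r were ATXN1 (0.99), SETD7 (0.97) and ZNF704 (0.97). The closest to MAPK8IP3 were MGRN1 (0.99), MAZ (0.99) and JMJD8 (0.99), all on chromosome 16 as MAPK8IP3 is. Among the closest to MAPK10 were ZNF154 (0.95) and VAPB (0.95). Between members, MAP2K4 and MAPK8IP3 had the highest r (0.71), then MAP2K4 and MAPK9 (0.69) and MAPK8IP1 and SPAG9 (0.62). The lowest were MAPK10 and MAPK8IP3 (-0.79) and MAP2K4 and MAPK10 (-0.69). MAPK8IP3 was lowest in the double KO groups (centred log2 -0.81 untreated and -0.94 with vincristine), and its neighbours were lower too in the untreated double KO. The r values are descriptions over 14 groups that share lines and controls, with WT vincristine replicate 4 included.

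The genes above and below the 9 members gave the following picture with vincristine, where 15.7% of all tested genes rose and 14.5% fell in WT and 17.1% rose and 18.1% fell in Control gRNA. Without WT vincristine replicate 4, 16.8% rose and 15.6% fell in WT. Of the MAP3Ks that can feed the JNK arm, 6 of 17 rose and 3 fell in WT, and 6 rose and 4 fell in Control gRNA. MAP3K20, which encodes the stress kinase ZAK, had the highest value in both, at 0.79 ± 0.23 in WT (adjusted p = 0.00670) and 2.64 ± 0.14 in Control gRNA (adjusted p = 5.19e-20), while MAP3K5, which encodes ASK1, had the lowest in WT (-1.26 ± 0.17, adjusted p = 3.95e-07). Without that library 7 MAP3Ks rose and 2 fell in WT, with MAP3K20 at 0.65 and MAP3K5 at -1.22. Of the MAP4K kinases above them, 1 of 7 rose and 1 fell in each (2 and 1 in WT without that library). Of 12 tested genes for other scaffolds and DLK regulators, none was called in WT, with or without that library, and 3 rose and 3 fell in Control gRNA. Of the 8 kinesin and adaptor genes whose products bind JIPs, 0 rose and 1 fell in WT (3 and 1 without that library), and 3 rose and 1 fell in Control gRNA, where KIF5B had the highest value (0.46 ± 0.08, adjusted p = 4.46e-05) and KLC2 the lowest (-0.34 ± 0.05, adjusted p = 1.11e-07).

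Below the kinases, of the genes listed as JNK phosphatases, 6 of 10 rose and 2 fell in WT, and 5 of 11 rose and 3 fell in Control gRNA, with median differences of 0.54 and 0.33 where the medians over all genes were near 0. DUSP16, which encodes a phosphatase that acts on JNK, rose by 2.41 ± 0.09 in WT, 2.03 ± 0.07 in Control gRNA, 2.00 ± 0.10 in DLK KO, 1.41 ± 0.07 in JUN gRNA and 2.06 ± 0.10 in LZK KO, with adjusted p values of 1.41e-18 or below in WT, Control gRNA and JUN gRNA and of 4.58e-17 and 2.70e-17 in DLK KO and LZK KO. It was not called in the double KO (0.52 ± 0.24, adjusted p = 0.802) or in ATF2 gRNA (0.12 ± 0.09, adjusted p = 0.529). Its response differed from WT in the double KO (-1.89 ± 0.27, adjusted p = 1.84e-06) and from Control gRNA in ATF2 gRNA (-1.91 ± 0.11, adjusted p = 1.36e-16). DUSP8, another JNK phosphatase, rose by 1.21 ± 0.18 in WT and 1.12 ± 0.07 in Control gRNA. DUSP7, lowest of the list in WT at -0.78 ± 0.12, and DUSP6, lowest in Control gRNA at -0.63 ± 0.05, are known mainly for acting on ERK. The counts and medians of this list, for rises and falls, are thus not those of phosphatases specific to JNK. Without WT vincristine replicate 4, 5 phosphatase genes rose and 2 fell in WT, with DUSP16 at 2.43, DUSP8 at 1.43 and DUSP7 at -0.69, and the double KO differed from WT by -1.91 for DUSP16.

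Of the nuclear JNK targets, 6 of 11 rose and 2 fell in WT, with the same counts without replicate 4, and 6 rose and 1 fell in Control gRNA. ATF3, a stress-induced transcription factor, rose by 3.98 ± 0.11 in WT and 3.48 ± 0.07 in Control gRNA, and its response was smaller in ATF2 gRNA than in Control gRNA (-3.00 ± 0.10, adjusted p = 1.68e-24). FOS, an AP-1 subunit, rose by 2.91 ± 0.16 in WT and 1.46 ± 0.18 in Control gRNA. Of the cytoskeletal JNK substrates, 2 of 10 rose and 2 fell in WT (3 and 3 without replicate 4), and 1 rose and 6 fell in Control gRNA. STMN4, a microtubule-destabilising stathmin, rose by 1.19 ± 0.06 in WT and 1.22 ± 0.07 in Control gRNA, and NEFM, a neurofilament subunit, fell (-0.48 ± 0.09 and -0.86 ± 0.02). Without replicate 4 the WT values were 3.95 for ATF3, 3.01 for FOS, 1.15 for STMN4 and -0.36 for NEFM. In the parallel kinase arms, of the p38 arm 0 of 6 rose and 1 fell in WT, and 0 rose and 4 fell in Control gRNA, and of the ERK arm 3 of 11 rose and 1 fell in WT (3 and 2 without replicate 4), and 3 rose and 6 fell in Control gRNA.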

How the data were processed

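The 61 neuron libraries gave 2 tables, 1 per experiment, in which the authors deposited whole-number counts per gene. Per the submitters' processing notes, reads were handled with cutadapt 3.4, STAR and featureCounts of Subread 2.0.1 on GRCh38, and per the file headers duplicates were marked. Per the labels' protocols, libraries were stranded and poly(A)-selected. Neither the strand setting nor the use of marked duplicates in counting is given in the sources used here. The design text gives day 14 for treatment, and the extraction protocol 10-14 days of differentiation. All 61 count columns were matched by name, and 0 were left unused; 58320 of 58440 identifiers matched a GENCODE 29 symbol. No 2 libraries of a group agreed within counting noise (lowest chi-square 1.58 per degree of freedom over 104 pairs).

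Each experiment was fitted on its own with edgeR 4.0.16 in R 4.3.3 (filterByExpr by group, TMM factors, robust quasi-likelihood F test, a mean for each group, the groups of an experiment together). This left 18235 and 20759 genes. P-values were adjusted over all genes of a comparison by Benjamini-Hochberg, and a gene was called at 0.05. SEs are the log2 fold change over the square root of F. Levels are CPM with TMM factors. Libraries that share a replicate number were treated as unpaired. Alternatives were RLE factors, DESeq2 1.42.0, limma 3.58.1 voom with quality weights, 2 other filters, GC-content offsets per library, a replicate block, fits on the compared groups alone and leaving out each library. The scripts were tested on simulated counts. Depth was 8410729 to 14647819 counts per library in experiment 1 and 38925807 to 88392414 in experiment 2. The SEs hold both counting error and the spread between libraries. The members, lists and alternatives were chosen with earlier results of these data known. The text names all 9 members, the 4 targeted genes, of each pathway list genes among the 2 highest and 2 lowest called in WT and Control gRNA, and the 3 genes most like each of the 3 members of widest range, of which 1 is not reported here.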

Additional observations from a re-analysis of the deposited data

Results flagged for a closer look

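Within groups of 4 or 5 libraries, 126 member and group pairs were examined for a library far from the rest by Dixon's criterion, and 5 were found; chance alone gives about 1 in 20. MAP2K7 in WT with vincristine had replicate 4 at 26.5 CPM, with the others at 51.9 to 54.7 CPM. SPAG9 had the same library at 544 CPM, above the others at 518 to 522 CPM. MAPK8IP1 in untreated WT had replicate 2 at 200.9 CPM, with the others at 184 to 187 CPM. MAP2K4 in untreated JUN gRNA had replicate 4 at 188.6 CPM, with the others at 170.1 to 174 CPM. MAPK8 in JUN gRNA with vincristine had replicate 2 at 377 CPM, with the others at 342 to 349 CPM.

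The response to vincristine differed between lines for 3 members by the test of the difference itself. For MAPK8IP1 the log2 difference was -0.83 in the double KO against WT, -0.75 in ATF2 gRNA against Control gRNA and -0.56 in JUN gRNA against Control gRNA. For SPAG9 it was -0.33 in the double KO against WT, -0.26 in the double KO against DLK KO, -0.30 in ATF2 gRNA against Control gRNA and -0.32 in ATF2 gRNA against JUN gRNA. For MAPK8IP2 it was 0.20 in ATF2 gRNA against Control gRNA.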

How the results depend on the processing

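No called difference of a member changed direction under any alternative run. The number of the 9 members called moved by over 1.5 times as follows, with the share of all genes called in the same fit in brackets; the causes were not tested. With the GC trend removed it was 5 for vincristine in WT (35.2%), 2 in LZK KO (4.61%), 4 in ATF2 gRNA (8.08%), and, for differences in response, 2 for DLK KO against WT (20.4%), 2 for LZK KO against WT (15.3%), 4 for the double KO against WT (24.8%), 2 for the double KO against DLK KO (2.23%), 2 for JUN gRNA against Control gRNA (17.5%) and 2 for ATF2 gRNA against JUN gRNA (4.68%). With limma voom it was 5 in both WT (37.3%) and DLK KO (19.6%), 2 in LZK KO (5.17%), 3 for LZK KO against WT (19.4%), 6 for the double KO against WT (32.2%), 6 for the double KO against DLK KO (15.1%) and 4 for JUN gRNA against Control gRNA (22.2%). With DESeq2 it was 2 in LZK KO (5.41%), 1 in ATF2 gRNA (7.40%), 1 for LZK KO against WT (15.3%) and 2 for the double KO against DLK KO (3.41%). Without a filter it was 0 in LZK KO (1.04%), 1 in ATF2 gRNA (3.20%) and 2 for untreated DLK KO (11.4%); with a filter at 1 CPM it was 1 for LZK KO against WT (14.6%) and 1 in ATF2 gRNA (8.90%); with RLE factors it was 1 in ATF2 gRNA (5.53%). With only the compared groups in the fit it was 1 in the double KO (6.31%), 6 for the double KO against DLK KO (18.5%) and 1 in ATF2 gRNA (4.22%). Smaller moves included 9 with the GC trend removed (36.9%) and 4 without a filter (19.4%) for vincristine in Control gRNA, where 6 were called.

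Leaving out 1 library gave, for vincristine, 2 to 5 members in WT, 2 to 3 in DLK KO, 0 to 1 in LZK KO, 0 in the double KO, 5 to 6 in Control gRNA, 0 to 3 in ATF2 gRNA and 4 in JUN gRNA. For differences it gave 0 to 1 for DLK KO against WT, 0 to 2 for LZK KO against WT, 2 to 5 for the double KO against WT, 0 to 1 for the double KO against DLK KO, 2 to 3 for ATF2 gRNA against Control gRNA, 1 to 3 for JUN gRNA against Control gRNA and 1 for ATF2 gRNA against JUN gRNA. For untreated lines it gave 2 to 5 in DLK KO, 2 to 3 in LZK KO, 5 to 6 in the double KO, 5 to 7 in ATF2 gRNA and 2 to 4 in JUN gRNA. With the replicate number as a block the count was 3 for untreated DLK KO (4 without the block) and 2 for ATF2 gRNA against Control gRNA (3 without), and no other count moved. Same-numbered libraries had a median correlation of deviations of 0.0033 in experiment 1 (-0.31 to 0.22) and 0.026 in experiment 2 (-0.22 to 0.21). Libraries with different numbers had medians of 0.0063 and 0.00029. A median over all comparisons cannot exclude pairing in some of them.

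From CPM without a length correction, the MAPK10 share of JNK reads in untreated and vincristine groups was 42.1% and 43.2% in WT, 37.9% and 38.4% in DLK KO, 32.0% and 31.8% in LZK KO, 47.1% and 45.0% in the double KO, 22.8% and 23.1% in Control gRNA, 20.9% and 21.1% in ATF2 gRNA and 19.6% and 20.9% in JUN gRNA. MAP2K4 in ATF2 gRNA with vincristine was at 170.0 CPM with RLE factors and 168 with TMM.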
